A study of Mus musculus with 4 samples.

Results

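The cells described here are T cells that a filter on the Cd3e transcript would remove. They are barcodes of a droplet single-cell RNA-seq experiment in which no Cd3e UMI was counted although at least 1 UMI of Cd3d or Cd3g was; a UMI (unique molecular identifier) stands for 1 captured transcript molecule. A barcode also had to have at least 200 genes, at most 20000 UMIs and at most 10% of its UMIs from mitochondrial genes, and fewer than 3 UMIs in all of C1qa, C1qb, C1qc and Lyz2, transcripts of macrophages. The rule found 10478 such cells among 32525 barcodes, and these are called lost cells. The 21207 barcodes within the same limits that had a Cd3e UMI are called kept cells. Members were chosen by their own counts of Cd3e, Cd3d, Cd3g and the 4 macrophage genes, so the values of these genes are given only as a description.

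The study compared unconventional αβ T cells (UTCαβ) sorted from sarcomas that the carcinogen 3-methylcholanthrene (3-MCA) had induced in male C57BL/6J mice. Csf3r encodes the receptor of granulocyte colony-stimulating factor, and Csf3r-/- mice lack it in every cell, while Csf3r+/+ mice carry both normal copies. The sort took CD45+ CD11b- cells that stained for TCRβ and not for TCRγδ, CD4 or CD8. There were 2 libraries of each genotype, biological replicates from tumour-bearing mice, each loaded into 1 channel. In the count matrices the libraries of a genotype are told apart by a number at the end of each barcode, here used as the library's number; that number is not tied to a named animal, and an equal number in both genotypes pairs nothing. The study's methods give a missing Cd3e count as a reason to leave a barcode out, but the cell totals stated there are larger than the barcodes with a Cd3e UMI in these matrices, so the filter cannot have been applied to these counts in full. By those totals most of the lost cells must have entered its clusters, and which did is not known; what follows describes the filter as written, applied to the deposited counts.

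CD3δ, CD3γ and CD3ε are invariant chains of the T cell receptor complex: they pair as CD3εδ and CD3εγ, carry the receptor to the cell surface and pass on its signal through motifs that the kinase Lck phosphorylates. An αβ T cell therefore needs all of these chains. A droplet experiment, however, samples only a small part of each cell's transcripts, and a gene of few copies is often missed. Unconventional T cells of tumours span a range between type 3 cells, which can make IL-17, and type 1 cells, which use T-bet (Tbx21), make IFNγ and granzymes and can carry NK cell receptors of the Ly49 and NKG2 families. The comparison asked which of these states the Cd3e criterion would take away.

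The 3 genes lie side by side on mouse chromosome 9 in build GRCm38: Cd3g (ENSMUSG00000002033) at chr9:44969572-44980431 on the minus strand, Cd3d (ENSMUSG00000032094) at chr9:44981786-44987339 on the plus strand and Cd3e (ENSMUSG00000032093) at chr9:44998740-45009627 on the minus strand. The kit reads the 3′ end of a transcript, so a count belongs to the gene and not to a given exon.

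The 4 libraries held 3625 to 11512 barcodes and 12483656 to 38559291 UMIs. Pairs of libraries shared 33 to 163 barcode sequences, at most 1.60% of the smaller library, and at most 17 of these were lost cells in both. Csf3r+/+ library 2 stood apart: its Cd3e level was 2.76 UMIs per 10000 in T cell barcodes, against 5.79 to 6.27 in the other 3 libraries, and 92.2% of its T cell barcodes were on the type 1 side of the state range, against 21.2% to 51.5%. The main results below are therefore given by library. Some shares are pooled over the 4 libraries, and some genes are given only by their log2 difference. Pooled shares weigh Csf3r+/+ library 2 most, since it held 4888 of the 10478 lost cells.

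Lost cells were a large part of the data. Of the T cell barcodes, meaning those with a UMI of Cd3d or Cd3g within the limits above, no Cd3e UMI was found in 621 of 3454 in Csf3r+/+ library 1, 4888 of 11280 in Csf3r+/+ library 2, 1818 of 7002 in Csf3r-/- library 1 and 3151 of 9878 in Csf3r-/- library 2. The shares were 17.98%, 43.3%, 25.96% and 31.9%, or 33.1% of all 31614. Of the barcodes with no Cd3e UMI, lost cells were 94.0%; the rest had no UMI of any CD3 chain, had 3 or more macrophage UMIs or missed another limit. Kept cells were often only just kept, since 48.0% of them had exactly 1 Cd3e UMI, with 32.3%, 59.9%, 41.5% and 48.5% in the 4 libraries.

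By the genes of the rule, as a description, the median lost cell had 6 UMIs of Cd3d and Cd3g, 96.5% had at least 2, and 83.4% had both chains. The label was checked on markers that the rule did not use: 95.1% of lost cells had at least 2 UMIs of the 5 genes Thy1 (a surface glycoprotein of T cells), Cd2 (an adhesion receptor), Lck (the kinase above), Lat (the adaptor that links the receptor to its signalling complex) and Cd247 (the ζ chain). At matched depth the share was 95.4% in lost and 96.1% in kept cells. Barcodes with no UMI of any CD3 chain had it in 51.2% (n = 381), and barcodes with 10 or more macrophage UMIs in 48.2% (n = 191). In this share lost cells were far closer to kept cells than to these barcodes. It was also high where an NK cell marker was common, so it does not check the label against NK cells. Of the 18 lost cells of 6000 UMIs or more in Csf3r+/+ library 1, 94.4% had the 5 genes. In the same cells 66.7% had a UMI of the NK cell receptor gene Ncr1. The transcripts of the T cell receptor constant regions Trac, Trbc1 and Trbc2 were not among the genes listed in the matrices and could not be used.

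At the lower edge of the rule, the 368 lost cells with just 1 UMI of Cd3d and Cd3g had the 5 T cell genes in 81.3%, between the 381 barcodes just outside and the whole. At the macrophage limit, the 86 lost cells with 2 macrophage UMIs had them in 88.4% and the 25 barcodes with 3 such UMIs in 88.0%.

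Lost cells were shallower. Their median UMI counts were 2527, 2518, 1858 and 1760 in Csf3r+/+ libraries 1 and 2 and Csf3r-/- libraries 1 and 2, and those of kept cells were 3055, 3021, 2237 and 1977. The share lost fell with depth in all 4 libraries, as the plot of loss against UMIs shows. From 1000 to under 1500 UMIs it was 44.6% (50 of 112, exact 95% binomial interval 35.2% to 54.3%), 57.5% (187 of 325, 52.0% to 63.0%), 44.0% (398 of 905, 40.7% to 47.3%) and 47.3% (861 of 1820, 45.0% to 49.6%). At 6000 UMIs or more it was 8.53% (18 of 211, 5.13% to 13.2%), 21.1% (197 of 933, 18.5% to 23.9%), 5.42% (11 of 203, 2.74% to 9.49%) and 9.82% (11 of 112, 5.01% to 16.9%). These intervals cover counting error only.

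Had every T cell barcode of a library carried Cd3e at that library's mean rate, with Poisson counting, 610, 4934, 1786 and 3105 cells would have been without a Cd3e UMI, and the numbers found were 0.991 to 1.02 times these. The totals were thus close to this expectation. In classes below 3000 UMIs the numbers lay near it as well, at 0.852 to 1.12 times the expected number, and from 3000 to under 6000 UMIs they were at 1.03 to 1.52 times it. The deepest class departed clearly. Among barcodes of 6000 UMIs or more the 18, 197, 11 and 11 lost cells stood against 2.41, 117, 2.37 and 1.83 expected. Loss fell with the number of Cd3d and Cd3g UMIs, from 57.6%, 61.3%, 48.1% and 51.1% in the lowest class to 7.75%, 10.4%, 2.85% and 6.02% in the highest. These classes were not adjusted for depth. Their median UMI counts rose from 1823, 1984, 1420 and 1492 to 5190, 8123, 5506 and 5021.

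**Figure D1:**
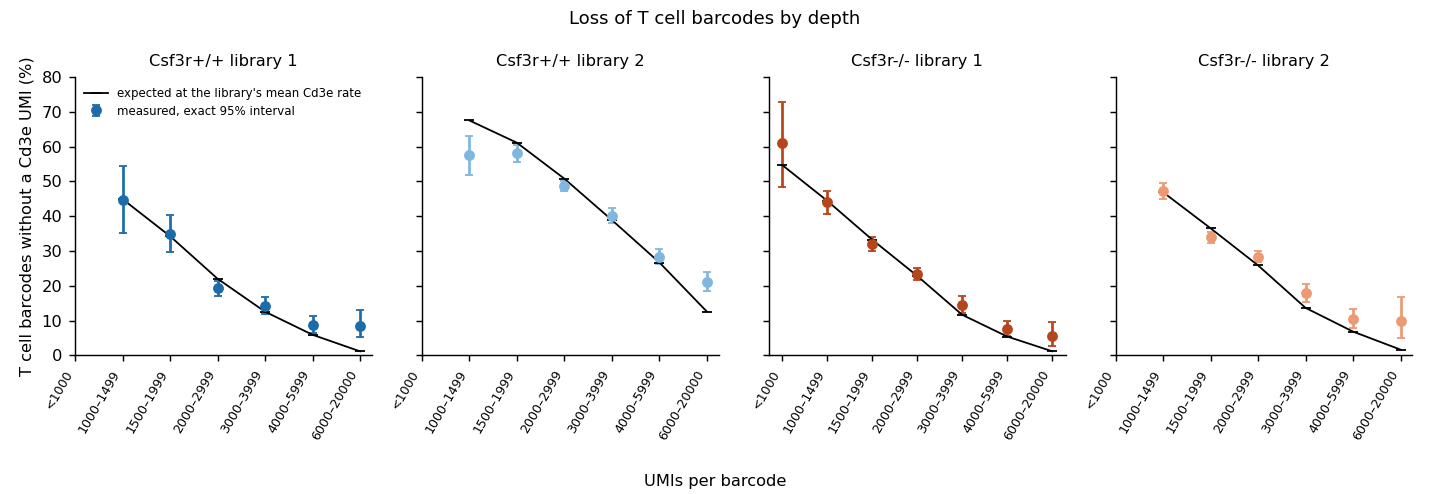
Share of T cell barcodes without a Cd3e UMI (y axis, percent) by class of UMIs per barcode (x axis), in a panel for each of the 4 libraries; points carry exact 95% binomial intervals, and black lines show the share expected at the library's mean Cd3e rate. The share fell with depth in every library, Csf3r+/+ library 2 lay above the others in each class from 1000 UMIs on, and at 6000 UMIs or more all 4 lay above their expectation.

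The 237 lost cells of 6000 UMIs or more differed between libraries. In Csf3r+/+ library 1 the 18 such cells had a median of 3 Cd3d and Cd3g UMIs against 21 in the 194 kept cells of that depth, and 66.7% had a UMI of Ncr1, which encodes the NK cell receptor NKp46, against 18.6%. In Csf3r+/+ library 2 the 197 cells had medians of 14 against 17, and 100% were on the type 1 side against 99.9%. The CD3 chain counts, which the rule used, are given as a description. In the Csf3r-/- libraries the 11 and 11 deep lost cells had medians of 18 and 11 against 24.5 and 20, and 27.3% and 36.4% had at least 3 UMIs of the antigen presentation and B cell genes H2-Aa, H2-Ab1, H2-Eb1, Cd79a and Cd79b, against 6.25% and 6.93% of kept cells.

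Because loss depends on depth, states were compared at equal depth. A barcode was put on the type 1 side when it had more UMIs of 31 type 1 and Ly49 or NKG2 genes than of 15 type 3 genes, and on the type 3 side in the opposite case. This is a line drawn through a range and not a cell type, but the sides were far apart: the median type 1 barcode had 49 type 1 side UMIs and 2 type 3 UMIs, and the median type 3 barcode had 1 and 19. Only 22, 136, 116 and 170 barcodes, 0.637% to 1.72% of a library, lay within 1 UMI of the line, and of the lost cells 1.29% to 2.32% did. The chemokine gene Ccl5 gave 41.5% of the type 1 side UMIs and the chemokine receptor gene Cxcr6 28.5% of the type 3 UMIs.

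At equal depth more of the type 1 side was without a Cd3e UMI. The depth-standardised share lost is the library's share multiplied by the ratio of lost cells found to those expected from the library and UMI class. It was 21.3%, 44.2%, 32.8% and 42.8% on the type 1 side in Csf3r+/+ libraries 1 and 2 and Csf3r-/- libraries 1 and 2, and 15.1%, 33.9%, 24.4% and 29.5% on the type 3 side. The difference was 6.17, 10.3, 8.43 and 13.3 percentage points, higher on the type 1 side in 4 of 4 libraries, with a mean of 9.54 ± 3.01 points (SD, n = 4). By the exact two-sided sign-flip permutation test p was 0.125, the smallest that 4 libraries can give, so the threshold of 0.05 could not be reached.

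Without Ccl5 and Cxcr6 in the rule, an alternative added after seeing the data, the differences were 6.23, 10.1, 7.90 and 12.7 points. Without the standardisation for depth the mean difference shrank to 2.38 points; type 1 barcodes were deeper, and their median UMI counts were 3330, 2851, 2698 and 2504, against 2684, 2040, 1999 and 1814 on the type 3 side. The unstandardised shares lost were 19.4%, 43.4%, 25.7% and 35.5% on the type 1 side and 16.5%, 41.2%, 25.9% and 30.9% on the type 3 side, and in Csf3r-/- library 1 the 2 sides were then about equal.

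As a description, the CD3 transcripts themselves differed between the sides. Per 10000 UMIs, Cd3e was at 5.50, 2.68, 5.10 and 4.19 on the type 1 side and 6.87, 4.25, 6.79 and 6.42 on the type 3 side. Cd3g was at 21.7, 13.5, 19.3 and 17.0 against 25.3, 19.9, 27.0 and 25.7. Both were lower on the type 1 side in every library. Cd3d went the other way, at 12.8, 10.3, 13.1 and 11.4 against 10.3, 8.96, 10.95 and 10.9.

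**Figure D2:**
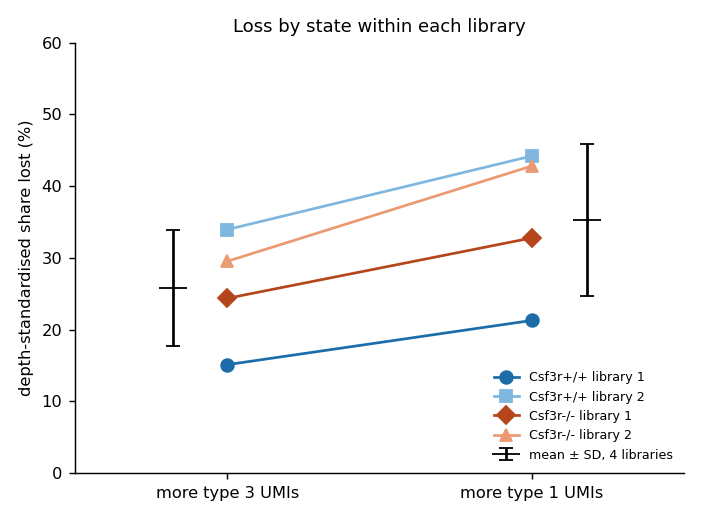
Depth-standardised share of T cell barcodes lost (y axis, percent) on the type 3 and type 1 sides of the state range; each line joins the 2 values of 1 library, and black bars give the mean ± SD of the 4 libraries. All 4 lines rise from type 3 to type 1, by 6.17 to 13.3 percentage points.

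The make-up of the libraries differed little with and without the lost cells. With them, 51.5%, 92.2%, 23.6% and 21.2% of T cell barcodes were on the type 1 side, and among kept cells 50.7%, 92.0%, 23.7% and 20.1% were. The shift was widest in Csf3r-/- library 2. At matched depth the lost cells were on the type 1 side in 55.3%, 92.8%, 23.7% and 23.7% and the kept cells in 48.4%, 89.5%, 16.8% and 15.2%, more in lost cells in 4 of 4 libraries.

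The genes of these lists were then taken singly. They define the 2 sides, so their ratios show how the difference is spread over genes and are not separate evidence for it. For each gene, the lost cells found among barcodes with a UMI of it were divided by the number expected from their library and depth. Of the 15 type 3 genes 13 had a ratio under 1 in all 4 libraries, with a median over genes of 0.917, and the exceptions were Il17f and Icos. Il17f had the highest mean ratio of the list at 1.38, and Icos was at 0.960. Il1r1, a receptor for IL-1 that promotes IL-17 production, had the lowest ratio at 0.774, 0.820, 0.887 and 0.796 in Csf3r+/+ libraries 1 and 2 and Csf3r-/- libraries 1 and 2. The mean ratio was 0.841 for Blk, a Src family kinase of IL-17 producing T cells, 0.872 for the chemokine receptor gene Ccr6 and 0.882 for the IL-23 receptor gene Il23r. Cells with these transcripts were lost less often than their library and depth gave.

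Of the 16 type 1 genes 12 had a ratio over 1 in all 4 libraries and 4 in 3 of them, with a median of 1.15. Ifng was at 1.29, 1.02, 1.22 and 1.14, and the mean was 1.197 for Xcl1, a chemokine gene of cytotoxic cells, 1.21 for Tbx21 and 1.08 for the granzyme gene Gzmb. Of the 15 Ly49 and NKG2 genes 6 were over 1 in all 4 libraries and 7 in 3 of them, with a median of 1.19. Klra8, which encodes the activating receptor Ly49H, had a mean of 1.76, from ratios of 2.47, 1.02, 1.63 and 1.94, and 123 of the 298 barcodes with it were lost. The excess was smallest in Csf3r+/+ library 2, where the median of this list was 0.990; there 92.2% of barcodes were on the type 1 side, so that they largely set the expected number themselves. The T cell receptor signalling list, in contrast, had 5 of 23 genes under 1 and 5 over 1 in all libraries, and a median of 1.002. Klra genes are close paralogs, and reads shared between them may have been assigned to a neighbour or discarded.

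**Figure D3:**
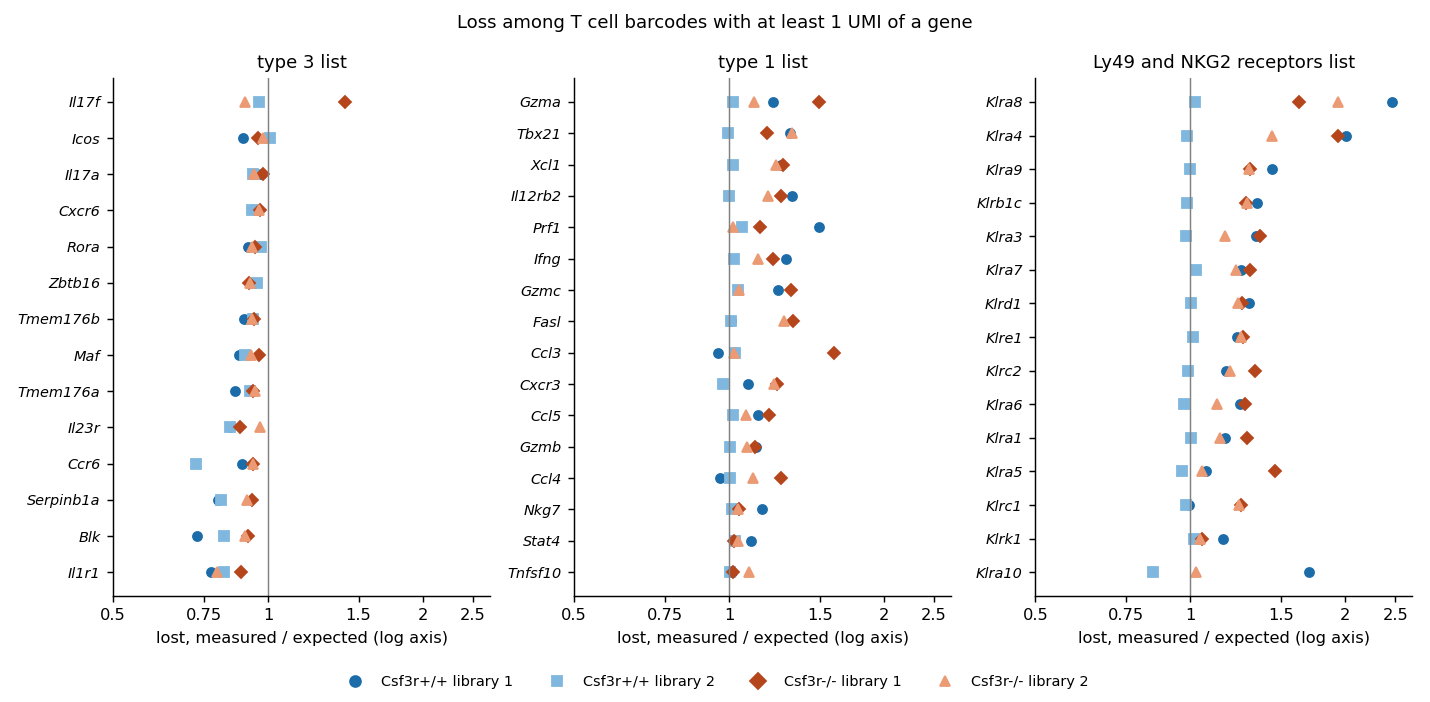
Ratio of lost cells found to lost cells expected at the same library and depth (x axis, log scale) among T cell barcodes with a UMI of each gene (rows), in a panel each for the type 3, type 1 and Ly49 or NKG2 lists; symbols are the 4 libraries and the vertical line marks a ratio of 1. Type 3 genes lie mostly left of the line (median 0.917) and type 1 and Ly49 or NKG2 genes mostly right of it (medians 1.15 and 1.19).

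For the remaining comparisons each lost cell was paired with a kept cell of the same library and UMI class, which gave 620, 4503, 1770 and 3125 cells a side and left 460 lost cells without a partner. Depth then differed little, with median UMI counts of 2532 and 2532, 2596 and 2605, 1873 and 1879, and 1767 and 1768 in lost and kept cells of the 4 libraries. The shares of cells with at least 2 UMIs of a list were compared for 25 lists. The type 3 list fell from 75.7%, 58.1%, 90.8% and 95.4% of kept cells to 71.3%, 55.6%, 86.6% and 92.7% of lost cells, by 3.43 ± 0.969 points on average (SD, n = 4). The type 1 list was at 61.9%, 95.5%, 34.6% and 50.9% in lost and 57.3%, 92.8%, 30.7% and 46.8% in kept cells, 3.83 ± 0.826 points higher. The Ly49 and NKG2 list was at 54.4%, 89.4%, 27.3% and 35.2% in lost and 45.0%, 87.4%, 20.7% and 29.7% in kept cells, 5.88 ± 3.07 points higher.

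Each of these 3 lists moved one way in 4 of 4 libraries, for which the exact sign-flip permutation test gives p = 0.125 (0.347 adjusted over the 25 lists). The same held for 6 other lists: NK or innate lymphoid (4.90 points higher in lost cells), recent stimulation (2.64), antigen presentation (0.840) and B cell (0.318) were higher, and Gzmk and checkpoint (1.96 points lower) and regulatory T (1.57 lower) were lower. The regulatory T list does not single out regulatory T cells, since 76.1% to 84.4% of lost cells met it. Its gene Capg was found in 21245 of the 31614 T cell barcodes. Foxp3, the transcription factor of regulatory T cells, was found in 389, with a mean ratio of lost cells found to expected of 1.003. The NK or innate lymphoid list rose by 10.7 points in Csf3r+/+ library 1, by 0.400 in Csf3r+/+ library 2 and by 4.46 and 4.10 in the Csf3r-/- libraries. The heat shock, interferon response, S phase, G2 and mitosis, quiescence and homing, coreceptor, T cell transcription factor, T cell receptor signalling, macrophage, dendritic and gamma delta T lists moved in different directions in different libraries. The neutrophil, fibroblast or sarcoma, endothelial, mast or basophil and erythroid lists were present in under 1% of cells on both sides in every library.

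**Figure D4:**
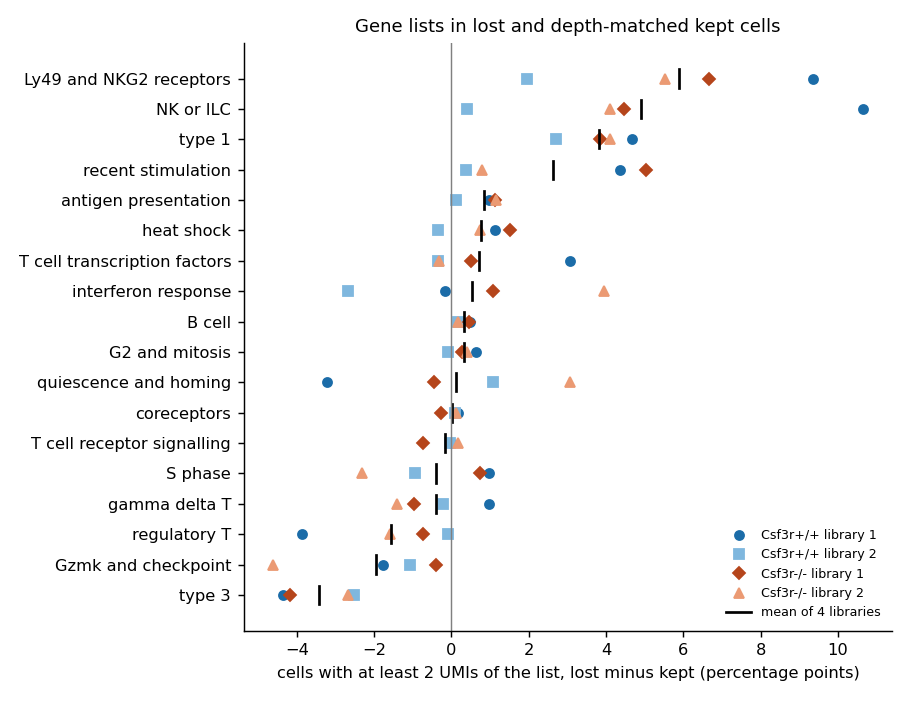
Lost minus depth-matched kept cells in the share with at least 2 UMIs of a gene list (x axis, percentage points), for the 14 state lists and 4 marker lists on the y axis; symbols are the 4 libraries and black ticks their mean. Type 3 lies left of 0 in all 4 libraries, and type 1, Ly49 or NKG2 and NK or innate lymphoid lie right of it.

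Across genes, UMI counts were summed over the lost and over the matched kept cells of each library and compared by edgeR's quasi-likelihood test with the library as a block. Of 9891 genes tested 158 passed an adjusted p of 0.05 (1.6%), 115 higher (1.16%) and 43 lower (0.435%) in lost cells, and 969 had an unadjusted p under 0.05. DESeq2 called 110. Most differences were small. Of the 115 higher genes 90 differed by less than 0.5 on the log2 scale and 37 encode ribosomal proteins, and the 43 lower genes had a median of -0.21 and the same direction in all 4 libraries. The median over all genes was -0.000396.

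The type 3 list held 8 of the 43 genes that fell. Of its 15 genes 8 were lower and none higher in lost cells, against 0.435% of all genes lower, with a median log2 difference of -0.21. The size of the differences in this list rested on the matching for depth: against all kept cells Tmem176a was at -0.06, Cxcr6 at -0.02 and Il1r1 at -0.19, with the same sign, and none of the 15 genes passed (median -0.07). With all cells thinned to 1000 UMIs 2 of the 15 were lower, and without Csf3r-/- library 2 there were 4.

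Tmem176a, which with its neighbour Tmem176b encodes an ion channel protein of type 3 lymphocytes, was at 754, 124, 1072 and 1088 CPM (UMIs of a gene per 1000000 UMIs) in lost cells of Csf3r+/+ libraries 1 and 2 and Csf3r-/- libraries 1 and 2 and at 919, 159, 1237 and 1276 CPM in kept cells (-0.24 ± 0.03, SE; edgeR adjusted p = 3.69e-05). Tmem176b fell by the same amount. Cxcr6, which encodes the receptor for CXCL16, was at 992, 333, 2152 and 2165 CPM in lost and 1185, 400, 2380 and 2539 CPM in kept cells (-0.20 ± 0.02, edgeR adjusted p = 3.69e-05). Il1r1 was at 11.01, 1.80, 27.5 and 30.4 CPM in lost and 15.7, 2.47, 35.8 and 44.0 CPM in kept cells (-0.45 ± 0.10, edgeR adjusted p = 0.0192), and it no longer passed without either Csf3r-/- library.

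In each of these genes lost cells were the lower side in every library. Blk (-0.25), Maf (-0.18), a transcription factor of IL-17 producing cells, and Serpinb1a (-0.24), a protease inhibitor, also fell. Blk no longer passed without Csf3r-/- library 2, and Maf not without Csf3r+/+ library 2 or Csf3r-/- library 2; Maf turned to 0.03 when kept cells were not matched for depth and to 0.05 when all cells were thinned to 1000 UMIs. Il17a, the type 3 cytokine itself, was at 9.27, 6.001, 211 and 1280 CPM in lost and 8.70, 5.47, 164 and 1457 CPM in kept cells, with a log2 difference of 0.03 ± 0.07 (edgeR adjusted p = 0.968) that turned negative under 8 of 16 alternatives. By the ratio of lost cells found to expected it lay under 1 in all 4 libraries, at 0.968, 0.936, 0.978 and 0.937, so the share of cells with the transcript and the summed level differed in what they gave.

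On the type 1 side 4 of 16 genes were higher and none lower, against 1.16% of all genes higher, with a median of 0.23, and without Csf3r+/+ library 2 there were 7. Ifng was at 308, 369, 60.3 and 106 CPM in lost and 225, 341, 38.0 and 70.1 CPM in kept cells (0.38 ± 0.06, edgeR adjusted p = 0.0027). Xcl1 was at 1272, 1425, 269 and 294 CPM in lost and 869, 1413, 194 and 205 CPM in kept cells (0.37 ± 0.06, edgeR adjusted p = 0.0012). Gzmb was at 1212, 1086, 342 and 414 CPM in lost and 997, 1055, 246 and 305 CPM in kept cells (0.31 ± 0.05, edgeR adjusted p = 0.00081). All 3 were higher in lost cells of every library, and least so in Csf3r+/+ library 2. Against all kept cells, not matched for depth, Ifng (0.45) and Gzmb (0.26) still passed, and Xcl1 (0.04) did not.

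The granzyme gene Gzmc was at 488, 56.9, 10.0 and 17.1 CPM in lost and 73.1, 42.7, 11.1 and 18.8 CPM in kept cells (1.06 ± 0.25, edgeR adjusted p = 0.0318), higher in the Csf3r+/+ libraries and slightly lower in the Csf3r-/- libraries. Its UMIs in lost cells of Csf3r+/+ library 1 sat in 48 cells, and 1 of them held 22.6%. Without that library, or with only barcodes under 6000 UMIs (0.36), it no longer passed. Tbx21 (0.13), the perforin gene Prf1 (0.26), Gzma (0.73) and Ccl5 (0.25) did not pass the test.

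Of the 14 Ly49 and NKG2 genes tested 6 rose and none fell, against 1.16% of all genes higher, with a median of 0.21. Of these genes 2 rose when Csf3r+/+ library 1 was left out, 10 when Csf3r+/+ library 2 was and 3 when Csf3r-/- library 2 was. Against all kept cells 7 rose and Klra1 fell (-0.19), with a median of 0.17, and Klre1 (0.07) no longer passed. Klra8 was at 60.3, 11.3, 2.22 and 7.64 CPM in lost and 5.80, 8.02, 0.277 and 1.33 CPM in kept cells (1.37 ± 0.28, edgeR adjusted p = 0.0098), and Klra4, which encodes Ly49D, was at 37.1, 7.28, 2.22 and 4.15 CPM in lost and 2.90, 4.65, 0.277 and 0.664 CPM in kept cells (1.52 ± 0.30, edgeR adjusted p = 0.0092). The contrast was widest in Csf3r+/+ library 1, where 23 lost and 9 kept cells had a Klra8 UMI; in Csf3r+/+ library 2 the numbers were 83 and 86. With barcodes under 6000 UMIs only, Klra8 was at 0.74 and no longer passed (edgeR adjusted p = 0.111), and Klra4 no longer passed without Csf3r+/+ library 1.

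The abundant receptors moved less. Klrk1 (NKG2D) was at 761, 1158, 391 and 557 CPM in lost and 534, 1148, 334 and 496 CPM in kept cells (0.22 ± 0.05, edgeR adjusted p = 0.0116), higher in lost cells of every library and under each left-out library still past the test. Klrd1 (CD94), Klre1 and Klra9 (0.34, 0.29 and 0.32) were higher in lost cells of 3 libraries and slightly lower in those of Csf3r+/+ library 2. Of these, Klrd1 no longer passed without Csf3r+/+ library 1 or without Csf3r-/- library 2, and Klre1 and Klra9 also not without Csf3r-/- library 1.

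Some markers of NK and innate lymphoid cells rose as well. Their list shares Klrb1c with the Ly49 and NKG2 list and Gzmc, described above, with the type 1 list. It also shares Eomes with the Gzmk and checkpoint list and Tyrobp with the macrophage list. The lists are therefore not separate evidence. Of the 8 genes tested of the list of 10, Fcer1g, Tyrobp and Gzmc rose and none fell, with a median of 0.32, against 1.16% of all genes higher. Fcer1g and Tyrobp encode signalling adaptors of NK receptors that myeloid cells also use. Tyrobp was at 354, 99.6, 95.03 and 80.7 CPM in lost and 124, 93.8, 41.3 and 36.5 CPM in kept cells (0.81 ± 0.14, edgeR adjusted p = 0.0035). Ncr1 was at 114, 20.2, 13.6 and 4.65 CPM in lost and 41.8, 19.0, 9.15 and 3.15 CPM in kept cells (0.58 ± 0.16, edgeR adjusted p = 0.0731), which did not pass. The summed level of the list was 4.91 to 24.4 UMIs per 10000 in lost and 3.36 to 13.5 in kept cells, and its part in the type 1 result was not tested. The sort required TCRβ, which NK cells lack at the surface. Whether NK cells were among the lost cells was not tested.

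**Figure D5:**
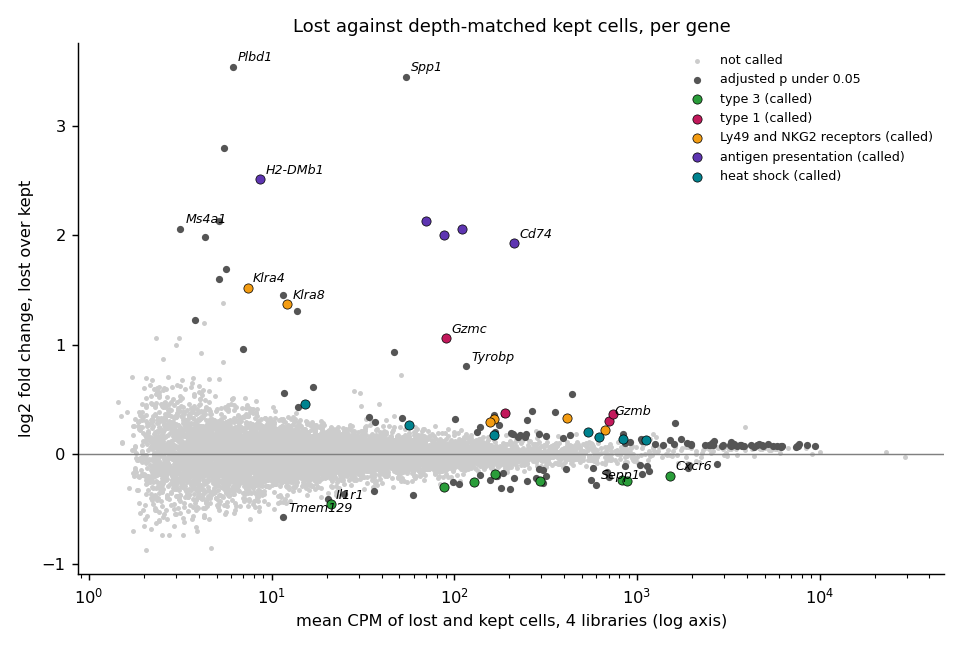
Log2 fold change of lost over depth-matched kept cells (y axis) against the mean CPM of both over the 4 libraries (x axis, log scale); each point is a gene, grey where it did not pass, and coloured points are genes of 5 lists that passed an adjusted p of 0.05. Type 3 genes that passed lie below 0, type 1, Ly49 or NKG2 and heat shock genes above 0, and antigen presentation genes near 2.

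Many of the largest differences were in genes of antigen-presenting cells and came from few cells, although the sort required TCRβ and left out CD11b+ cells. By size, the 10 genes that rose most in all 4 libraries were Plbd1, Spp1, Alox5ap, H2-DMb1, H2-Eb1, Ctsh, Ms4a1, H2-Ab1, H2-Aa and Spi1. The invariant chain gene Cd74 was at 323, 141, 412 and 533 CPM in lost and 29.6, 77.2, 96.5 and 96.8 CPM in kept cells (1.93 ± 0.18, edgeR adjusted p = 6.78e-06), and the MHC class II gene H2-Ab1 was at 290, 75.1, 130 and 261 CPM in lost and 9.28, 40.9, 36.3 and 36.0 CPM in kept cells (2.06, edgeR adjusted p = 3.87e-05). The share of cells with a UMI hardly differed, at 4.71% of lost and 4.43% of kept cells for H2-Ab1 and 9.32% and 8.90% for Cd74. The difference lay in a few cells with many UMIs: 1 cell of Csf3r+/+ library 1 held 256 of that library's 501 H2-Ab1 UMIs.

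Of the 7 antigen presentation genes 5 rose (median 2.00), and of 4 B cell genes tested the receptor component Cd79a (1.69) and Ms4a1 (2.06), which encodes CD20, rose. Over all genes 1.16% were higher. Barcodes with at least 3 UMIs of H2-Aa, H2-Ab1, H2-Eb1, Cd79a and Cd79b were 101 of the 10018 matched lost cells (1.01%) and 56 of the kept cells (0.559%). These 101 had the 5 T cell genes in 67.3%, against 95.7% of the other lost cells. With such barcodes left out on both sides, Cd74 was at 0.03 and H2-DMb1 at 0.58 and neither passed. H2-Ab1 (0.06), H2-Aa (0.35) and H2-Eb1 (0.16) did not pass either. These 3 genes helped to define the barcodes left out, so their drop was built in. Gzmb (0.29), Ifng (0.34), Xcl1 (0.36), Tmem176a (-0.24) and Cxcr6 (-0.20) still passed.

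Plbd1, a phospholipase-like protein of myeloid cells, had 40, 59, 17 and 84 UMIs in lost and 0, 9, 6 and 2 in kept cells, from 40 and 12 cells in all (3.54 ± 0.37, edgeR adjusted p = 1.97e-05). Spp1, which encodes the secreted protein osteopontin, had 661, 75, 41 and 99 UMIs in lost and 12, 4, 1 and 61 in kept cells (3.45 ± 0.40, edgeR adjusted p = 3.69e-05). In Csf3r+/+ library 1 its UMIs came from 20 lost cells, 1 of which held 33.6%, and in Csf3r+/+ library 2 1 cell held 90.7%. Without Csf3r+/+ library 1 the Spp1 difference was 1.78 and with barcodes under 6000 UMIs alone it was 1.44, while with the antigen presentation and B cell barcodes left out it was 3.36 and still passed. Alox5ap (2.79), needed to make leukotrienes, Ctsh (2.13), a lysosomal protease, and Spi1 (1.99), the transcription factor PU.1 of myeloid and B cells, were likewise rare, at under 20 CPM in every library.

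Of the macrophage list 6 of 12 genes could be tested, and Aif1 (0.96), Cst3 (0.55) and Tyrobp rose, against 1.16% of all genes higher. Aif1 did not pass without Csf3r+/+ library 1 or Csf3r-/- library 1. Only Tyrobp of the list still passed with barcodes under 6000 UMIs or with no macrophage UMI. The same held with the antigen presentation and B cell barcodes left out, where Cst3 was at -0.06. The share of cells with at least 2 UMIs of the list was lower in lost cells of 3 libraries, by 1.38 points on average over all 4. The summed level of the list was 5.37 to 14.8 UMIs per 10000 in lost and 4.91 to 8.30 in kept cells. The rule itself allowed up to 2 UMIs of 4 macrophage genes in lost and kept cells alike. No gene of the dendritic, fibroblast or sarcoma, mast or basophil and erythroid lists was high enough to test. The 2 neutrophil, 1 endothelial and 3 gamma delta T genes that could be tested did not pass, and Sox13, a factor of IL-17 producing gamma delta T cells, was at 2.32, 0.225, 3.33 and 4.82 CPM in lost and 2.32, 0.675, 5.55 and 3.98 CPM in kept cells.

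Among the genes that fell most, beside Il1r1, were Tmem129 (-0.57), a ubiquitin ligase, the chemokine receptor gene Ccr4 (-0.41), the potassium channel gene Kcnk1 (-0.37), Dusp12 (-0.36), Plekhg1 (-0.34), Ly6g5b (-0.32), Pxdc1 (-0.30) and Sepp1 (-0.27). Sepp1, which encodes the selenium carrier selenoprotein P, was at 432, 70.3, 821 and 826 CPM in lost and 523, 92.9, 959 and 1026 CPM in kept cells (-0.27 ± 0.03, edgeR adjusted p = 3.49e-05). Ly6g5b, Pxdc1 and Sepp1 stood at a lower level in Csf3r+/+ library 2 than elsewhere, and lost cells were below kept cells in all 4 libraries. Ccr4, Dusp12 and Plekhg1 no longer passed when any 1 library was left out, Kcnk1 not without Csf3r-/- library 2, and Tmem129 not without either Csf3r-/- library.

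The T cell receptor signalling genes, with 23 tested, had 1 gene higher, against 1.16% of all genes, and 3 lower, against 0.435%, with a median of 0.01. Thy1 was at 1174, 691, 1203 and 1313 CPM in lost and 1357, 783, 1300 and 1508 CPM in kept cells (-0.15 ± 0.02, edgeR adjusted p = 0.00088). Lat was at 524, 305, 851 and 880 CPM in lost and 633, 335, 978 and 984 CPM in kept cells (-0.16 ± 0.03, edgeR adjusted p = 0.0035). Both were lower in lost cells of every library, as was the kinase gene Zap70 (-0.17), and the phosphatase gene Ptpn22 was higher (0.16). Zap70 and Ptpn22 no longer passed without Csf3r+/+ library 2, Csf3r-/- library 1 or Csf3r-/- library 2. Lck (-0.06), Cd2 (0.09) and Cd247 (-0.05) did not pass.

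Most heat shock genes were slightly higher. The counts in this paragraph stand against 1.16% of all genes higher and 0.435% lower in lost cells. Of 9 heat shock genes 7 rose and none fell (median 0.16), among them the chaperone genes Dnajb1 (0.21), Hspa1a (0.13), Hsp90aa1 (0.14) and Hspb1 (0.46). Dnajb1 was at 630, 1152, 212 and 294 CPM in lost and 599, 1032, 181 and 245 CPM in kept cells, higher in lost cells of every library (0.21 ± 0.03, edgeR adjusted p = 0.00088). Of 12 recent stimulation genes Cd69 (0.15), an early activation receptor, and Fos (0.11), a subunit of AP-1, rose and 10 did not pass, and of 10 quiescence and homing genes Satb1 (0.21), a chromatin organiser of T cells, did. Without 1 library these calls changed: Hspa1a, Hsph1, Hspb1 and Hspd1 no longer passed without Csf3r+/+ library 2, which left 3 heat shock genes, Cd69 not without Csf3r+/+ library 2 or Csf3r-/- library 1, Fos not without Csf3r+/+ library 1 or Csf3r-/- library 1, and Satb1 not without either Csf3r-/- library. Of 7 regulatory T genes Capg (-0.18), an actin capping protein, fell, and it is the only gene of that list that changed. Of 81 ribosomal protein genes 37 rose and none fell, with a median of 0.07.

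The interferon response (14 genes tested), S phase (14), G2 and mitosis (13), Gzmk and checkpoint (7) and coreceptor (2) lists had no gene past the test at matched depth. Their medians lay between 0.0018 and 0.10. Without matching for depth, 12 of 14 S phase genes were lower in lost cells (median -0.39). So were 9 of 13 G2 and mitosis genes (median -0.65) and 3 of 9 Gzmk and checkpoint genes. Of 14 interferon response genes 6 were higher. Of all 10992 genes in that comparison 189 were higher and 136 lower. With all cells thinned to 1000 UMIs, 4 S phase and 3 G2 and mitosis genes were lower. There 5 interferon response genes were higher, against 102 higher and 36 lower of 9646 genes.

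Between genotypes, the share of T cell barcodes lost was 30.7% ± 17.9 in Csf3r+/+ and 28.9% ± 4.20 in Csf3r-/- libraries (SD, n = 2 each), a difference of -1.73 percentage points (exact two-sided permutation p = 1). With 2 libraries a group the smallest p possible is 0.333, and leaving out 1 library moved the difference between -14.4 and 10.95 points, so no direction can be given. The range within Csf3r+/+, from 17.98% to 43.3%, held both Csf3r-/- values.

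The states of lost and of kept cells were then set side by side by genotype. On the type 1 side were 73.8% ± 26.1 of lost cells in Csf3r+/+ and 23.5% ± 0.143 in Csf3r-/- libraries, and 71.4% ± 29.3 and 21.9% ± 2.59 of kept cells (SD, n = 2 each). The groups did not overlap, and p was 0.333 by the exact permutation test. In lost cells the median log2 difference, Csf3r-/- minus Csf3r+/+, was 1.74 for the type 3 list, -1.44 for the type 1 list and -1.81 for the Ly49 and NKG2 list, and in kept cells it was 1.69, -1.47 and -1.80. Lost and kept cells come from the same animals, and these values are given with no test of their difference.

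By edgeR's test 4 of 10045 genes differed between genotypes within lost cells (0.0398%), with 1457 at an unadjusted p under 0.05, and 0 of 11411 within kept cells (0%), with 1713. DESeq2 called 364 and 643. All 4 were lower in Csf3r-/- cells: Scand1 at 164 and 175 CPM in Csf3r+/+ and 9.59 and 5.62 CPM in Csf3r-/- lost cells (-4.62), Gm4978 (-4.54), Gm17430 (-3.37) and C1qbp (-3.15), each with an adjusted p of 0.047 in edgeR. In kept cells the same 4 had an adjusted p of 0.0651. Gzmb (-1.73, adjusted p = 0.0596), Xcl1 (-2.36, 0.0542), Klrd1 (-1.77, 0.055), Ifng (-2.14, 0.0853) and Il17a (6.65, 0.076) did not pass in lost cells.

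Whether the contrast of lost and kept cells itself depended on genotype was tested as an interaction. It passed for 21 of 9891 genes (0.212%), 20 of them with a higher lost minus kept difference in Csf3r-/- libraries, and 455 had an unadjusted p under 0.05; DESeq2 called 3. Ccl5, a chemokine gene of cytotoxic cells, had the most stable call. It was at 4434 and 7397 CPM in lost and 5445 and 7028 CPM in kept cells of the Csf3r+/+ libraries, and at 2294 and 1943 CPM in lost and 1485 and 1372 CPM in kept cells of the Csf3r-/- libraries. Lost cells were thus higher in both Csf3r-/- libraries and mixed in the Csf3r+/+ libraries, with an interaction of 0.65 ± 0.06 on the log2 scale (edgeR adjusted p = 3.63e-08), which passed under 13 of 15 alternatives.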

How the data were processed

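Sorted UTCαβ were processed with the 10x Genomics Single Cell 3′ v2 kit. The deposited values are raw UMI counts, which the authors made with Cell Ranger on mm10 (bcl2fastq, R 3.4.4 and Seurat 2.3.4 are also named in the submitters' notes). The 2 libraries of a genotype share a matrix of 27998 genes; whether reads were subsampled on merging is not given in the sources used here. Gene positions came from GENCODE, where 98.7% of genes were found. The members and lists were chosen with earlier results of these data known.

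Lost and kept cells were paired 1 to 1 within library and classes of 0.05 log10 UMIs. Sums of counts were tested with edgeR 4.0.16 (TMM, filterByExpr, quasi-likelihood F test, Benjamini-Hochberg adjustment; R 4.3.3), with the library as block; the pairing is by design, since lost and kept cells of a library come from the same sample. The 7 genes of the rule were left out of the test. Between genotypes the fit used 2 sums a group and no block. The number on a barcode pairs no libraries between genotypes. Shares were compared by exact permutation tests (scipy 1.17.1), with exact Clopper-Pearson intervals. The procedure was run on simulated sums with the same spread for every gene. Such sums do not cover genes whose counts sit in few cells. No doublet caller was run and free RNA was not estimated; lost and kept cells of a library share it. Named genes are those of the 25 lists, the 10 of largest change in each direction with the same sign in 4 libraries, and the 5 largest for genotype and interaction. 1 gene of the type 3 list, counted with the list, is not reported here by name. Alternatives were DESeq2 1.42.0, its size factors, no filter, no depth matching, thinning to 1000 UMIs, stricter limits on either side, upper limits of 3500 (Csf3r+/+) and 4000 (Csf3r-/-) genes, no block and leaving out each library.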

Additional observations from a re-analysis of the deposited data

Results flagged for a closer look

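The difference between lost and kept cells differed between genotypes, by edgeR's interaction test, for 11 named genes; values are log2 differences, Csf3r-/- minus Csf3r+/+. Ccl5 was at 0.65 and is described above. Ifitm1, an interferon-inducible membrane protein gene, was at 3.19 ± 0.51 (edgeR adjusted p = 0.000795, called under 8 of 11 alternatives), from levels of 1.16, 5.10, 6.95 and 12.9 CPM in lost and 1.16, 5.02, 0 and 1.83 CPM in kept cells of Csf3r+/+ libraries 1 and 2 and Csf3r-/- libraries 1 and 2. Its UMIs in lost cells came from few cells, with 24 of 25 in 1 cell of Csf3r-/- library 1 and 44 of 78 in 1 cell of Csf3r-/- library 2, and its sign turned without matching for depth (-0.34) and with thinning (-0.31). Spp1 was at -4.29 ± 0.51 (edgeR adjusted p = 3.48e-06), but at -0.25 without Csf3r-/- library 2 and no longer called there. The mitotic spindle gene Tpx2 was at 2.04, the chemokine genes Ccl1 and Ccl4 at 1.60 and 0.91, the Ly49 genes Klra3 and Klra9 at 1.11 and 0.58, the chemokine receptor gene Cxcr3 at 0.47, the costimulatory receptor gene Tnfrsf18 at 0.39 and Gzmb at 0.31. Tpx2 and Ccl1 were each called under 3 alternatives, of 15 and 13, and Cxcr3 under 4 of 15. Ccl1 had no UMI on either side of Csf3r-/- library 1, and 38 of its 57 UMIs in lost cells of Csf3r-/- library 2 were in 1 cell.

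For the interferon response list the difference in the share of cells with at least 2 UMIs in lost minus kept cells was -0.161 and -2.69 percentage points in the Csf3r+/+ libraries and 1.07 and 3.94 points in the Csf3r-/- libraries. The genotypes differed by 3.93 points in these means, and the difference was not tested.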

How the results depend on the processing

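The count of genes that differed between lost and kept cells, 158, was 290 with no filter on low counts, 325 with kept cells not matched for depth and 0 with no replicate block (library term) in edgeR; leaving out 1 library gave 97 (without Csf3r-/- library 2) to 158, and the other alternatives gave counts within 1.5 times. The interaction count of 21 was 3 by DESeq2, 1 without matching, 6 with thinning, 11 where kept cells needed Cd3d or Cd3g, 13 with at least 2 such UMIs on both sides, 5 with no macrophage UMI, 43 with barcodes under 6000 UMIs (added after seeing the data) and 38 to 67 with 1 library left out. The genotype count within lost cells, 4, was 364 by DESeq2, 1228 with no filter, 62 with at least 2 Cd3d and Cd3g UMIs, 51 with no macrophage UMI, 363 with the barcode number as replicate block, a number that pairs nothing by design, and 0 (without Csf3r-/- library 2) to 1277 (without Csf3r+/+ library 1) with 1 library left out, with 1 and 117 without the others. The difference in share lost by state stayed between 8.29 and 10.7 points with 1 library left out and was 2.38 without depth standardisation; the difference in share lost between genotypes ran from -14.4 to 10.95 with 1 library left out and was -7.32 at 1500 to 3000 UMIs.

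Of the 44 genes of the lists that passed between lost and kept cells 2, Maf and Cst3, changed sign under some alternative, and of the 149 that did not pass 84 did. Among the genes given above, Il17a was at -0.11 unmatched, -0.0946 thinned, -0.0558 where kept cells needed Cd3d or Cd3g, -0.14 with at least 2 of these UMIs, -0.13 with no macrophage UMI, -0.0297 without antigen presentation or B cell genes, -0.10 with no replicate block and -0.12 without Csf3r-/- library 1, with 0.33 without Csf3r-/- library 2. Maf was at 0.0341 unmatched and 0.0489 thinned, Ncr1 at -0.042 thinned, and Cd247 at 0.0026 and Cst3 at -0.0629 without antigen presentation or B cell genes. In the interaction Ifitm1 was at -0.34 unmatched and -0.31 thinned, Ccl1 at -1.18 unmatched, -0.58 with at least 2 Cd3d and Cd3g UMIs and -0.0563 without antigen presentation or B cell genes, Ccl4 at -0.20 without Csf3r-/- library 2, Klra9 at -0.0113 unmatched, and Gzmb at -0.0455 unmatched and -0.00884 thinned. The cause was not tested.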
